A study of Mus musculus with 34 samples.

Results

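Peaks of 3 chromatin proteins were located at 8 genes of the negative limb of the circadian clock in Beta-TC6 cells, an insulin-secreting β-cell line from mouse. The genes were the period genes Per1, Per2 and Per3, the cryptochrome genes Cry1 and Cry2, the repressor gene Ciart and the casein kinase genes Csnk1d and Csnk1e. A peak was counted for a gene when that gene's body was the nearest of 21887 protein-coding gene bodies and lay within 50 kb on mm10. By this rule 52 of the 174035 peaks in 10 peak lists belonged to the 8 genes, at 28 separate sites. Each list was made by chromatin immunoprecipitation and sequencing (ChIP-seq), which recovers and sequences the DNA that a chosen protein occupies.

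The p65 subunit of NF-κB and the β-cell homeodomain factor PDX1 were each profiled in 4 groups. These were Bmal1-/- cells (called knockout here) with IL-1β, wild-type cells with IL-1β, knockout control cells and wild-type control cells, with 3 samples per group. SIN3A, on which a corepressor complex with histone deacetylases is built, was profiled in wild-type cells given Pdx1 siRNA or control siRNA, with 2 samples each. Cells of every group, controls included, had received forskolin (10 µM for 1 h), which raises cyclic AMP. Whether it aligned the clocks of cells of either genotype cannot be read from these lists. The labels do not say whether the knockout line is a single clone, and the sources used here give no dose or duration for IL-1β.

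In the circadian clock, CLOCK and BMAL1 bind E-box sequences and activate the period and cryptochrome genes, whose proteins return to the nucleus and repress CLOCK and BMAL1. CIART adds to that repression, and casein kinases 1δ and 1ε phosphorylate PER proteins and so set how long they last. In β cells this clock times insulin secretion, and IL-1β is an inflammatory cytokine that sends p65 into the nucleus.

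There was 1 list per group, made from 31.0 to 63.9 M tags, and no value per replicate. Differences between lists are therefore given as description, with no test against the spread between replicates. Tag counts are the authors' own, scaled by them to 10 M tags, and the 95% intervals beside them are exact Poisson intervals that cover counting error only. The 4 PDX1 lists held a peak at 7, 10, 9 and 9 of 10 β-cell marker genes, in the order of groups above, and at 3, 7, 2 and 7 of 9 marker genes of other cells, but a peak is not expression and cannot show the cell type. For the PDX1 samples with IL-1β the antibody label reads p65 but the title reads PDX1, and here they are taken as PDX1 by title.

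The 250 bases before the annotated start are shown for 4 of the genes. SIN3A peaks lie at or beside these starts, as does the p65 peak of Per3, except at the upstream start of Per1. No list had a peak in the window of that start (69098949), and the SIN3A peak of Per1 is at the downstream one. Cry2 and Csnk1e, which also had SIN3A peaks near their starts, are not shown. The sequences are from RefSeq on GRCm38.p6 (the assembly of mm10), written 5′ to 3′ on the strand of the gene. Capitals mark CACGTG (the E-box), CACGTT or its complement AACGTG (a variant E-box), and TGACG or its complement CGTCA (the core of a cyclic AMP response element). The windows are chr11:69098699-69098948 and chr11:69099902-69100151 on the plus strand for the 2 starts of Per1, and, on the minus strand, chr4:151044666-151044915 for Per3, chr10:85185055-85185304 for Cry1 and chr3:95882229-95882478 for Ciart.
Per1, start at 69098949: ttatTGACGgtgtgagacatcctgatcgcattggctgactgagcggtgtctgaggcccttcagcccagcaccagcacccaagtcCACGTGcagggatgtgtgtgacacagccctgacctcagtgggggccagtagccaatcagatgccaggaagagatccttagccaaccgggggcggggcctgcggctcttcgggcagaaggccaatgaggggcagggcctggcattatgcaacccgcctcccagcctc
Per1, start at 69100152: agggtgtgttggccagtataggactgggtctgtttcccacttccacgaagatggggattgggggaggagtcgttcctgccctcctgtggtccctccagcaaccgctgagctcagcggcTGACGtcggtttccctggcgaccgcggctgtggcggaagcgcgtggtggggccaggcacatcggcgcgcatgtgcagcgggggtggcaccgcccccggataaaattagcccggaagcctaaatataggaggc
Per3: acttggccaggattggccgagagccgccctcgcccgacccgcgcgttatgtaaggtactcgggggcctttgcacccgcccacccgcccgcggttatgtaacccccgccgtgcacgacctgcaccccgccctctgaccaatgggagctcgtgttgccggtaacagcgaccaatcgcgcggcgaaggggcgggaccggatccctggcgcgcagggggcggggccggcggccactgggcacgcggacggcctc
Cry1: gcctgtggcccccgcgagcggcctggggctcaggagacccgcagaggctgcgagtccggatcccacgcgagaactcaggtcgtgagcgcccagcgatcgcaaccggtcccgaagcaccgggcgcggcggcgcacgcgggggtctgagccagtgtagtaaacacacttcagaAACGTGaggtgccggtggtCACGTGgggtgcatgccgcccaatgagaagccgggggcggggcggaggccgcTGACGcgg
Ciart: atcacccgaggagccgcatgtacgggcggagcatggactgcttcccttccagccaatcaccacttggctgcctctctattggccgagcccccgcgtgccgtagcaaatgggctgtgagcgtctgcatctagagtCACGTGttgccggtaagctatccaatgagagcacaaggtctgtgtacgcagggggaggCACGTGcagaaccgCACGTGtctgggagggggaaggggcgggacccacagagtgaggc

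Starts were matched for 6 of the 8 genes, with 10 starts in all, 4 of them overlapping windows of Csnk1e. CACGTG, searched on both strands, was in 3 of the 10 windows, against 6.63% of the windows of all 21263 coding starts. Ciart held 3 copies, at 116, 58 and 44 bases before its start. The upstream start of Per1 held 1 copy at 166 bases and Cry1 held 1 at 60 bases, while the downstream start of Per1 and that of Per3 held none. CACGTT was in 2 windows (Cry1 at 79 bases and Cry2 at 166 bases), against 3.90% of all. TGACG was in 6 of 10, against 20.2% of all, and includes every copy of the full palindrome TGACGTCA, which was in 0 of 10, against 1.92%. The κB pattern (GGG, any 5 bases, then CC) was in 8 of 10 windows and in 51.8% of all. For both TGACG and κB, overlapping windows of Csnk1e counted the same copies more than once. The homeodomain letters TAATTA and CTAATG were in none of the 10 windows, against 4.31% and 5.69% of all. These matches describe letters, not binding.

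The 3 proteins sat in different places at these genes. SIN3A had a peak at every one of the 8 genes, close to the gene start wherever a start was matched. Of all coding genes, 50.5% had one with Pdx1 siRNA and 48.1% with control siRNA. With 1 exception p65 peaks appeared in cells given IL-1β. They were at 5 genes in wild-type and 2 in knockout cells, beside 46.1% and 33.0% of all. PDX1 peaks lay more than 500 bp from any matched start and were at 5 genes in wild-type control cells, beside 42.0% of all. They had 6.52 to 18.6 tags. Their median percentile within the list was 65.1 with IL-1β (5 peaks) and 58.8 in control (8 peaks) for wild-type cells. For knockout cells it was 47.8 with IL-1β, on 1 peak, and 10.7 in control, on 2 peaks, too few to compare with wild type. Of the 28 sites, 5 carried more than 1 of the proteins, p65 was at 11, PDX1 at 11 and SIN3A at 12.

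**Figure D1:**
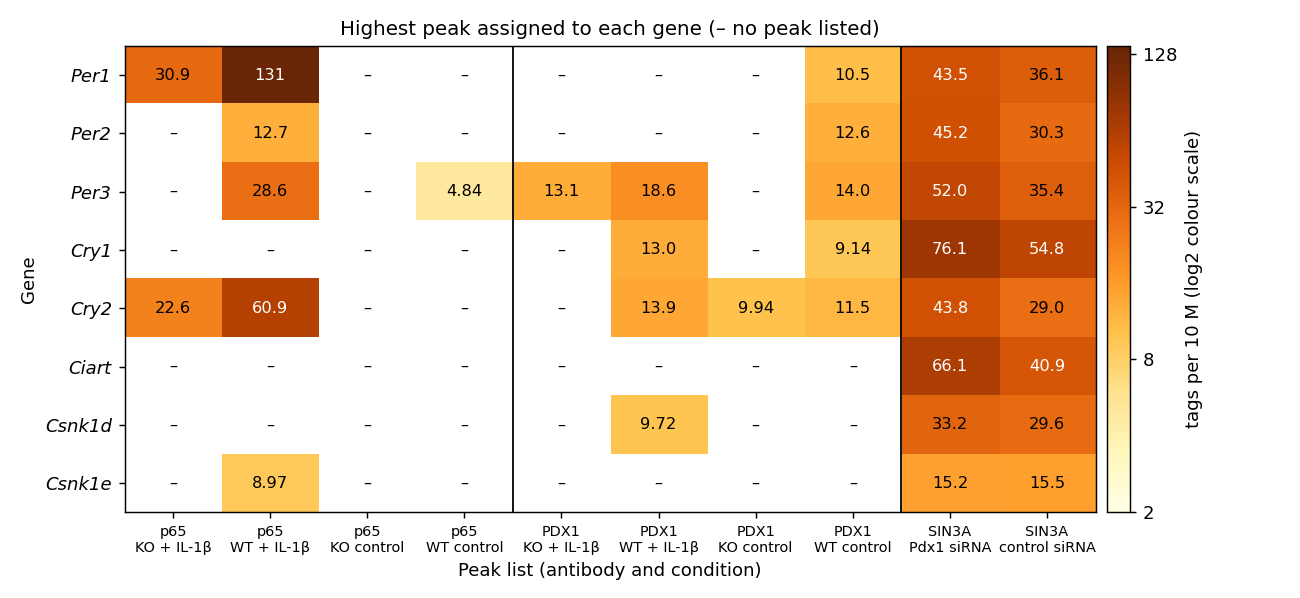
Highest normalised tag count (tags per 10 M) of any peak of each gene (rows) in each of the 10 peak lists (columns); a dash marks no peak, and 1 list stands for each group. The SIN3A columns are filled for all 8 genes, the p65 columns with IL-1β hold values for Per1 (30.9 in knockout and 131 in wild-type cells) and Cry2 in both genotypes, and the knockout control p65 column is empty.

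The first comparison was of p65 with IL-1β in knockout and wild-type cells. Per1 and Cry2 had p65 peaks in knockout cells with IL-1β, 2 of 8 genes, where 33.0% of all coding genes had one. In wild-type cells with IL-1β, 5 of 8 genes had one (Per1, Per2, Per3, Cry2 and Csnk1e), where 46.1% of all did. The 8 genes together held 5 p65 peaks in knockout cells and 10 in wild-type cells with IL-1β. In control cells there was none in the knockout list, where 0.676% of genes had a peak, and 1 in the wild-type list, where 9.01% did.

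Per1 encodes the period protein whose gene is quickly induced by cyclic AMP signalling. Its upstream p65 peak lay 4.08 kb before the nearest matched start. The gene is on the plus strand and its body begins at 69095108. The peak was 124 bp before that end in the knockout list and 138 bp in the wild-type list. It had 30.9 tags per 10 M in knockout cells with IL-1β (95% counting interval 26.5 to 35.8). In wild-type cells with IL-1β the peak, at chr11:69094764-69094970, had 131 tags (122 to 141). Neither control list had a p65 peak there, and the nearest control peak of wild-type cells was 41.1 kb from the gene body. The next gene, Vamp2, lay 2.38 kb from the wild-type peak, and which of these genes the site acts on was not tested. The peak was 49.3-fold over input in knockout and 30.3-fold in wild-type cells, on 2 and 13 input tags.

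Within the wild-type list this Per1 peak stood at percentile 98.6 of tag counts, and within the knockout list at percentile 90.9. Its knockout to wild-type ratio was 0.236 (counting interval 0.198 to 0.278). Over all 12777 peaks present in both lists the median ratio was 0.517, with quartiles of 0.403 and 0.678, and Per1 stood at percentile 2.65 of these ratios. Among 1218 shared peaks with a wild-type tag count like that of Per1 the median was lower, at 0.423, and Per1 stood at percentile 4.56 of them. Only peaks called in both lists have a ratio. Of wild-type peaks with tag counts like this one 99.0% had a knockout partner, against 46.8% of those like the 13.3-tag peak of Per1. Fewer of the weaker peaks thus enter the ratios, and what this does to the medians was not tested. The whole knockout list had 2.33% of its tags inside peaks and the wild-type list 5.98%, and peak windows were 231 bp and 206 bp wide. The part of these list-wide differences in the Per1 value was not tested.

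A second p65 site lay right of the Per1 body, between Per1 and Hes7, a Notch-pathway repressor gene. It had 4.94 tags in knockout cells (3.28 to 7.14) and 13.3 tags in wild-type cells with IL-1β (10.4 to 16.7), a ratio of 0.371 (0.232 to 0.585). This site was 803 bp from the end of Per1 in the wild-type list. It was much lower than the upstream one in both genotypes.

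Cry2 encodes a cryptochrome, a direct repressor of CLOCK and BMAL1, and carried the most p65 peaks of the 8 genes. All 3 of its knockout peaks lay inside the gene body and were also in the wild-type list. The site near the 3′ end, 28.1 kb from the start, had 22.6 tags in knockout and 60.9 tags in wild-type cells with IL-1β. The site 8.80 kb after the start had 15.7 tags in knockout and 44.6 in wild-type cells. The site 1.39 kb after the start had 11.5 tags in knockout and 25.0 in wild-type cells. The order of the 3 sites, highest near the 3′ end and lowest near the start, held in both lists. The site near the 3′ end lay 4.48 kb from Mapk8ip1, a kinase scaffold gene, and the transcription start nearest to it was that of 1700029I15Rik.

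The knockout to wild-type ratios at Cry2 were 0.371 (0.300 to 0.457), 0.352 (0.273 to 0.451) and 0.460 (0.336 to 0.621) in that order of sites. With the Per1 sites, all 5 ratios lay below the median of all shared peaks, 3 of them with intervals wholly below it. Those of Cry2 lay at percentiles 18.7, 15.2 and 37.5 of all shared peaks. Among shared peaks with wild-type tag counts like theirs the percentiles were 30.3, 26.0 and 45.5, so the Cry2 ratios were ordinary for peaks of that height. One more Cry2 peak, 3.98 kb upstream of the start, had 7.66 tags in wild-type cells with IL-1β and was absent from the knockout list.

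**Figure D2:**
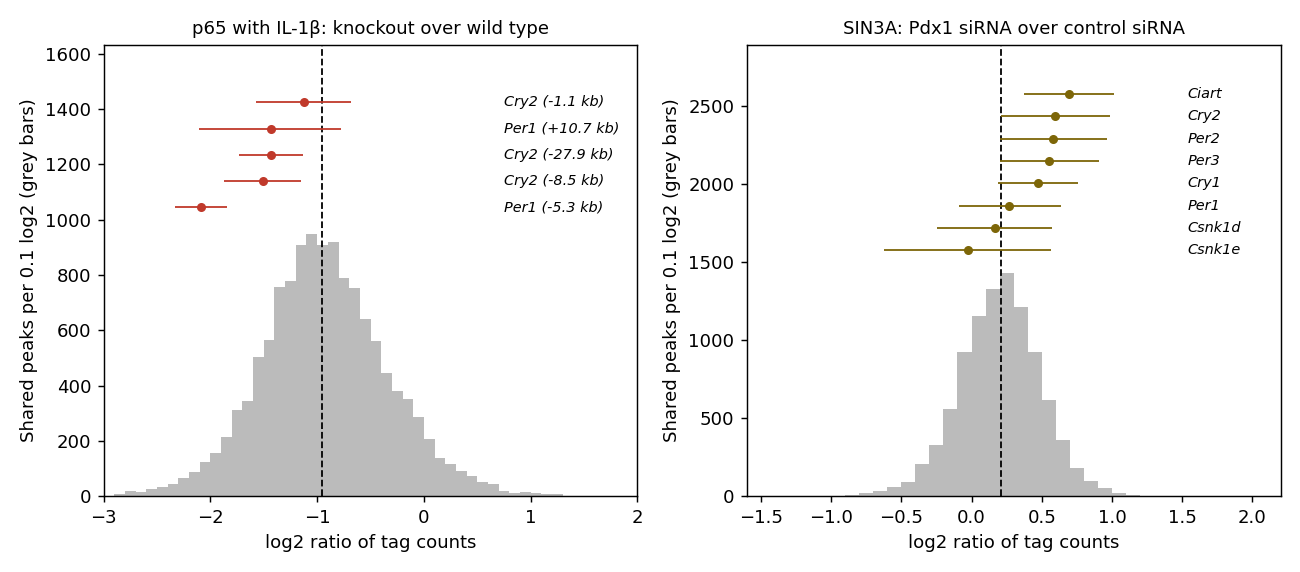
Ratio of tag counts on a log2 axis at each peak found in both lists of a pair: p65 with IL-1β in knockout over wild-type cells (left) and SIN3A with Pdx1 siRNA over control siRNA (right). Each coloured point is 1 peak with its 95% counting interval, placed at its own height for legibility, with the kb value in the left panel giving its place along the chromosome relative to the SIN3A peak of the gene; grey bars count all shared peaks and the dashed line is their median. All 5 p65 points lie left of the median of 0.517 (−0.95 on the log2 axis), and 6 of 8 SIN3A points lie right of the median of 1.16 (0.21).

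All 5 knockout p65 peaks of these genes with IL-1β overlapped a wild-type one by at least 1 bp, against 79.1% of all knockout peaks. Of the 10 wild-type peaks, 5 overlapped a knockout peak, against 40.7% of all. The knockout list held 16162 peaks and the wild-type list 31389. The wild-type peaks without a knockout partner were those of Per2, Per3 and Csnk1e and the upstream one of Cry2.

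Per3 encodes the period protein that is not needed for the clock to run. Its p65 peak at chr4:151044544-151044750 was centred 18 bp after the start, with 28.6 tags in wild-type cells with IL-1β (24.2 to 33.5), and the knockout list with IL-1β had none there. Among wild-type peaks of like tag count, 84.8% had a knockout partner. In knockout cells with IL-1β the nearest p65 peak was 32.1 kb from Per3 and belonged to Tnfrsf9. The wild-type peak was 6.14-fold over input, on 14 input tags, where the upstream Per1 peak had 30.3-fold, and Gm38529 began 103 bp from it. It was the only p65 peak centred within 1 kb of a start matched here. No start was matched for Per2 or Csnk1d, and the upstream Per1 peak lay beside the 5′ end of the gene body, which was not among the matched starts.

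Per2, whose protein is a main brake on CLOCK and BMAL1, had a p65 peak of 12.7 tags (9.86 to 16.1) inside the gene body in wild-type cells with IL-1β. Csnk1e had 2 p65 peaks in that list, with 3.36 tags (1.99 to 5.31) and 8.97 tags (6.61 to 11.9), at 4.31 kb and 11.6 kb from the gene body. The weaker one was at percentile 0.648 of its list, close to the lowest tag count of any peak in the knockout list, which was 3.18. Of wild-type peaks with tag counts like those of Per2 and of the stronger Csnk1e peak, 44.2% and 27.9% had a knockout partner.

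Cry1, Ciart and Csnk1d had no p65 peak in any of the 4 lists. Around Ciart the nearest was 6.78 kb from the gene body, with 22.4 tags in knockout and 47.6 tags in wild-type cells with IL-1β, and it belonged to Mrps21, a mitochondrial ribosome gene. The nearest p65 peak to Cry1 was 52.1 kb away in knockout and 69.6 kb away in wild-type cells with IL-1β. For Csnk1d these distances were 70.6 kb and 70.7 kb. The cryptochromes thus differed from each other, with 4 p65 peaks at Cry2 and none at Cry1 in wild-type cells with IL-1β.

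The second comparison was of IL-1β with control for p65. None of the 5 knockout p65 peaks with IL-1β overlapped a control peak, where 0.724% of all such peaks did. None of the 10 wild-type peaks did either, where 5.07% of all did. The knockout lists held 16162 peaks with IL-1β and 173 in control cells, and the wild-type lists 31389 and 3157. The one control p65 peak was 18.29 kb left of the Per3 body and 18.37 kb from that of the gene Uts2, with 4.84 tags (3.16 to 7.08). It had no partner among wild-type p65 peaks with IL-1β, where 50.4% of control peaks did. It overlapped a PDX1 peak of the same cells, as did 55.3% of all wild-type control p65 peaks.

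**Figure D3:**
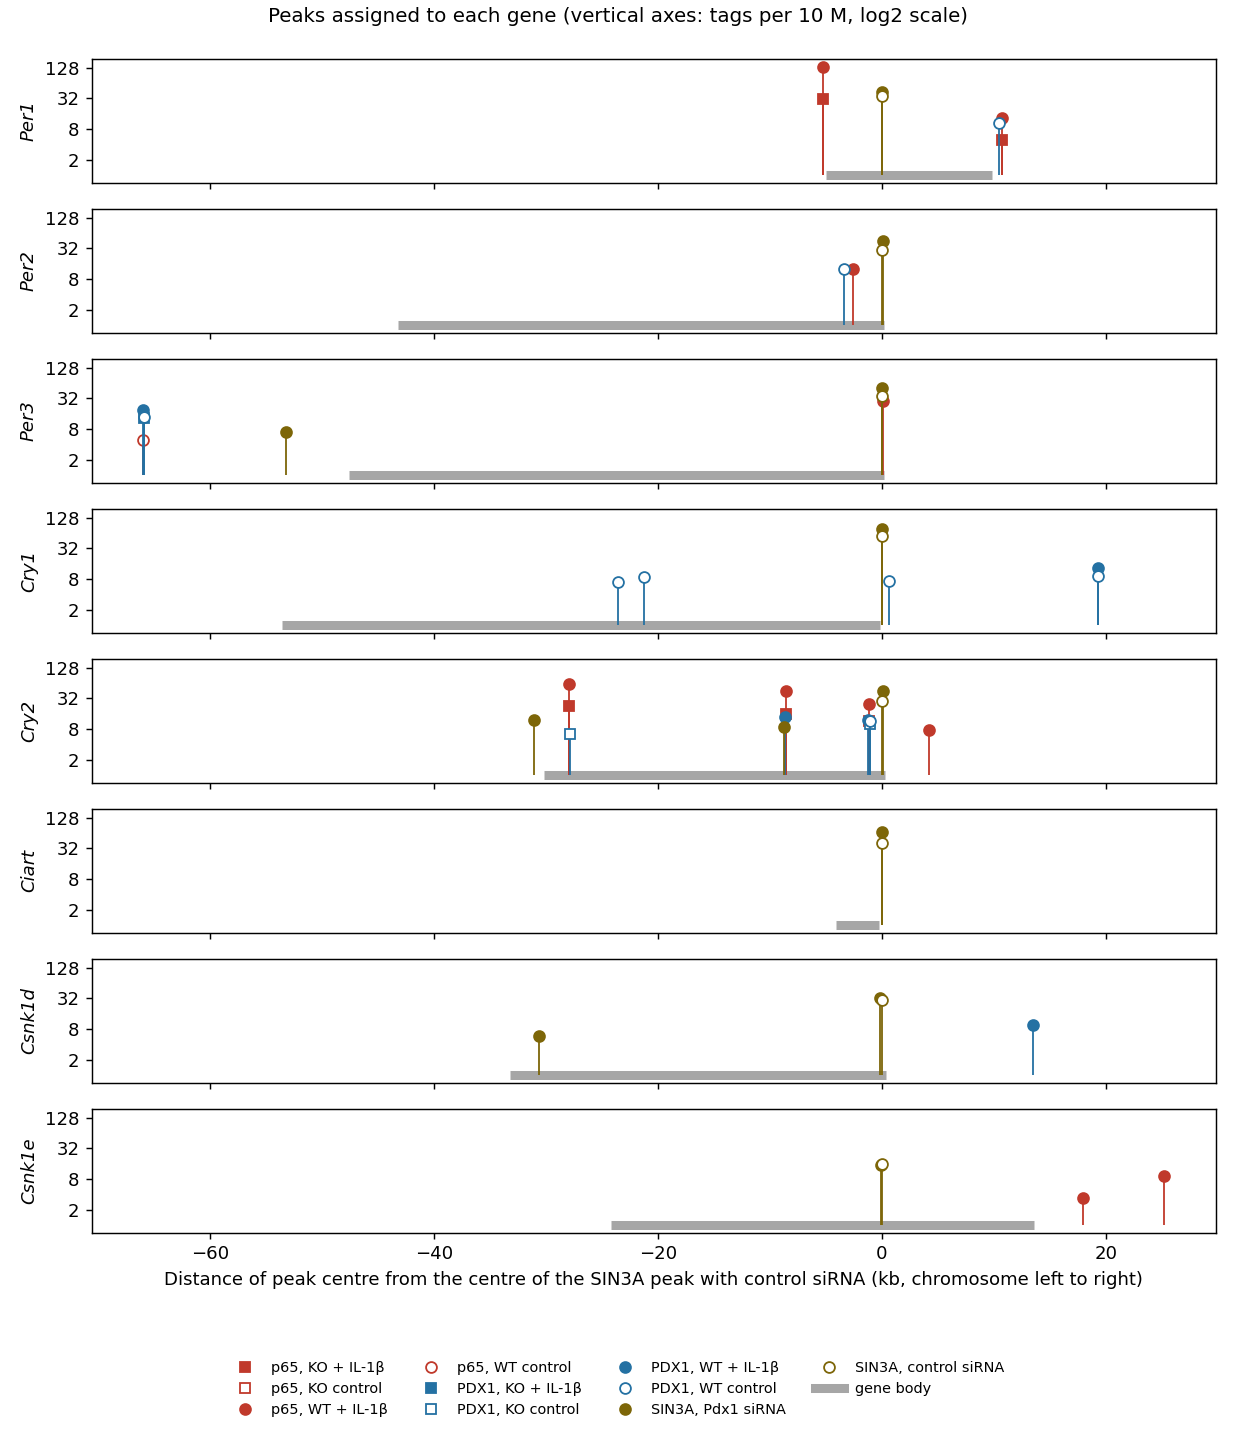
Position of every peak of the 8 genes, 1 row per gene, along the chromosome (horizontal axis, kb, left to right) from the centre of the SIN3A peak at the gene with control siRNA; grey bars show gene bodies, colour and marker give the protein and condition, and height gives the tag count per 10 M on a log2 axis. SIN3A marks cluster at 0 kb, p65 marks at Per1 lie at −5.3 kb and at 10.7 kb, and the PDX1 site of Per3 lies far left of the gene body.

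PDX1 had 16 peaks at 11 sites of these genes. In knockout cells with IL-1β 1 gene of 8 had a PDX1 peak (Per3), where 16.1% of all coding genes did. In wild-type cells with IL-1β 4 had one (Per3, Cry1, Cry2 and Csnk1d), where 41.4% of all did. In knockout control cells 1 had one (Cry2), where 16.5% did, and in wild-type control cells 5 did (Per1, Per2, Per3, Cry1 and Cry2), where 42.0% did. The higher wild-type counts depended on list length: with the wild-type lists limited to as many of their strongest peaks as the knockout lists held (8095 with IL-1β and 8339 in control cells), 0 of the 8 genes had a wild-type PDX1 peak, against 1 in each knockout list. The wild-type Per3 peak with IL-1β fell just outside that limit, at rank 8276 by HOMER score. It had 18.6 tags, against 13.1 in the knockout peak at the same site. Ciart and Csnk1e had none in any list, with the nearest PDX1 peak at least 60.1 kb from Ciart. The tag counts of all these PDX1 peaks lay between 6.52 and 18.6, below the SIN3A start peaks of every gene except Csnk1e. None of the 5 PDX1 peaks of wild-type cells with IL-1β or the 2 of knockout control cells was 8-fold over input. The peak windows were 418 bp and 472 bp in the knockout lists with IL-1β and without, against 226 bp and 207 bp in the wild-type ones, and what that does to counts and calls was not tested.

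A PDX1 site distal to Per3 was, with one at Cry2, seen in 3 PDX1 lists, the most of any. It lay about 18 kb left of the Per3 body and 66.0 kb from its start. Uts2, a peptide hormone gene, lay on the same side and almost as near. In wild-type cells with IL-1β the peak was 18.27 kb from the body of Per3 and 18.35 kb from that of Uts2. The site had 13.1 tags in knockout cells with IL-1β (10.5 to 16.3). It had 18.6 tags in wild-type cells with IL-1β (15.4 to 22.4) and 14.0 tags in wild-type control cells (11.1 to 17.3). The knockout control list had no peak there. By the nearest transcription start, or with genes of any biotype counted, this site belonged to another gene than Per3. The knockout to wild-type ratio with IL-1β was 0.704 (0.526 to 0.943), above the median of 0.576 over 7280 shared peaks. Among 516 of them with like wild-type tag counts the median was 0.646. Tags were counted over 418 bp in knockout and 226 bp in wild-type cells, and the part of this in the ratio was not tested. The IL-1β to control ratio in wild-type cells was 1.33, with a counting interval of 0.998 to 1.79 that includes 1.

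Cry1, which encodes the strongest repressor among the cryptochromes, had 4 PDX1 peaks in wild-type control cells, with 7.15 and 8.81 tags in the gene body, 7.48 tags 781 bp upstream of the start and 9.14 tags 19.5 kb upstream. In wild-type cells with IL-1β it had 1, at the distal site, with 13.0 tags (10.3 to 16.1), a ratio to control of 1.42 (0.993 to 2.04). Neither knockout list had a PDX1 peak at Cry1. Of wild-type control peaks with tag counts like these, 5.70% to 10.9% had a partner in the knockout control list, so their absence there was the usual case.

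Cry2 had PDX1 peaks at sites that p65 also used. The site after its start had 12.1 tags in wild-type cells with IL-1β, 9.94 tags in knockout control cells and 11.5 tags in wild-type control cells. The site 8.91 kb after the start had 13.9 tags in wild-type cells with IL-1β alone. The site near the 3′ end had 6.52 tags in knockout control cells alone, where the lowest peak of that list had 5.05 tags. The wild-type ratio of IL-1β to control at the site after the start was 1.05 (0.754 to 1.49). The knockout to wild-type ratio there in control cells was 0.864 (0.604 to 1.24). Both intervals include 1. Among 336 shared peaks with like wild-type control tag counts the median knockout to wild-type ratio was 1.03, and Cry2 stood at percentile 29.3. The control windows were 472 bp in knockout and 207 bp in wild-type cells, and the part of this in the ratio was not tested.

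The other PDX1 peaks were in 1 list each. Per1 had one of 10.5 tags in wild-type control cells, 77 bp from the wild-type p65 peak right of the gene and not overlapping it. Per2 had one of 12.6 tags in wild-type control cells, 600 bp from its p65 peak. Csnk1d had one of 9.72 tags in wild-type cells with IL-1β, 13.0 kb from its body.

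Between lists, 3 of 5 PDX1 peaks of wild-type cells with IL-1β overlapped a control peak, against 61.8% of all, and 3 of 8 control peaks overlapped one with IL-1β, against 60.1%. The 1 knockout peak with IL-1β had no partner in knockout control cells, where 60.6% of all did, nor did the 2 knockout control peaks with IL-1β, where 58.8% did. The peak with IL-1β had a wild-type partner, as 89.9% of all did, and 1 of the 5 wild-type peaks with IL-1β had a knockout partner, against 18.7% of all. In control cells 1 of 2 knockout peaks had a wild-type partner, against 91.6% of all, and 1 of 8 wild-type peaks had a knockout one, against 19.1%. With so few peaks of these genes these counts set them apart from other genes in no comparison.

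The overlap of p65 with PDX1 addresses whether the 2 factors share sites under IL-1β. In wild-type cells with IL-1β 2 of 10 p65 peaks overlapped a PDX1 peak, against 33.8% of all p65 peaks, and both were at Cry2, 8.80 kb and 1.39 kb after its start. There the p65 peaks had 44.6 and 25.0 tags and the PDX1 peaks 13.9 and 12.1 tags. In knockout cells with IL-1β 0 of 5 overlapped one, against 21.9% of all. The upstream Per1 site, with the highest p65 count of these genes, had no PDX1 peak in any list.

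SIN3A had a different layout. Each of the 8 genes had a SIN3A peak with Pdx1 siRNA, where 50.5% of all coding genes did, and with control siRNA, where 48.1% did. There were 12 such peaks with Pdx1 siRNA and 8 with control siRNA. All 8 of the control siRNA peaks overlapped a peak with Pdx1 siRNA, against 73.4% of all, and 8 of 12 in the other direction, against 65.6%.

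The SIN3A values of the period genes lay between those of Cry1 and Csnk1d in both lists. Per1 had 43.5 tags with Pdx1 siRNA (36.8 to 50.9) and 36.1 tags with control siRNA (29.7 to 43.4), centred 29 bp and 23 bp before its downstream start. Per2 had 45.2 tags with Pdx1 siRNA (38.4 to 52.8) and 30.3 tags with control siRNA (24.5 to 37.1), close to the right end of its body. Per3 had 52.0 tags with Pdx1 siRNA (44.8 to 60.2) and 35.4 tags with control siRNA (29.1 to 42.7), 104 bp and 115 bp after its start. The intervals of Per1 overlap between the siRNAs, and those of Per2 and Per3 do not.

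Among the cryptochrome genes and Ciart the SIN3A values spread widely. Cry1 had 76.1 tags with Pdx1 siRNA (67.2 to 85.8) and 54.8 tags with control siRNA (46.8 to 63.6), 189 bp and 165 bp upstream of its start. Ciart had 66.1 tags with Pdx1 siRNA (57.8 to 75.1) and 40.9 tags with control siRNA (34.1 to 48.7), 318 bp and 319 bp upstream. Cry2 had 43.8 tags with Pdx1 siRNA (37.1 to 51.3) and 29.0 tags with control siRNA (23.3 to 35.6), 146 bp and 256 bp after its start. Cry1 and Ciart had the highest 2 values in both lists, and at both the peaks overlap the windows printed above. Cry2 had less than Per2 and Per3 in both lists, and with control siRNA only Csnk1e had less than Cry2. BC028528, whose body was about 1.3 kb away, was the next coding gene at Ciart. With genes of any biotype counted, the Ciart peaks went to another gene in both lists.

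The kinase genes had the lowest 2 values with Pdx1 siRNA, but with control siRNA Cry2 lay below Csnk1d. Csnk1d had 33.2 tags with Pdx1 siRNA (27.4 to 39.8) and 29.6 tags with control siRNA (23.9 to 36.3), near the right end of its body. Csnk1e had 15.2 tags with Pdx1 siRNA (11.4 to 19.8) and 15.5 tags with control siRNA (11.4 to 20.5), inside its body near its starts. Csnk1e alone of the 8 lay under the median of both lists, which was 21.7 tags with Pdx1 siRNA and 20.0 with control siRNA.

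The Pdx1 siRNA to control siRNA ratio of the start peaks was above 1 at 7 of 8 genes, with an interval above 1 at 5. It was 1.62 at Ciart (1.29 to 2.02), 1.51 at Cry2 (1.16 to 1.98), 1.49 at Per2 (1.15 to 1.95), 1.47 at Per3 (1.15 to 1.88) and 1.39 at Cry1 (1.14 to 1.69). The other 3 had intervals that include 1, with 1.20 at Per1 (0.938 to 1.55), 1.12 at Csnk1d (0.844 to 1.49) and 0.981 at Csnk1e (0.651 to 1.48). Over all 9619 shared peaks the median ratio was 1.16, with quartiles of 1.01 and 1.31, so most shared SIN3A peaks had more tags with Pdx1 siRNA. Against that median, 6 of the 8 lay above and 2 had an interval wholly above it. Ciart stood at percentile 95.9 of all shared peaks and at 99.9 of 626 with like control tag counts. The windows were 208 bp with Pdx1 siRNA and 225 bp with control siRNA, and 3.65% and 3.00% of all tags lay inside peaks.

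The 4 SIN3A peaks seen only with Pdx1 siRNA were low. Cry2 had 12.0 tags 741 bp left of its body, in the gap to Mapk8ip1, and 8.86 tags 9.01 kb after its start. Per3 had 6.86 tags 5.52 kb from its body and 5.60 kb from that of Uts2, and Csnk1d had 5.72 tags inside its body. Among Pdx1 siRNA peaks of like tag count only 12.3% to 49.2% had a control siRNA partner.

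SIN3A and the other proteins met at few places. The control siRNA peak at the start of Per3 overlapped the p65 peak of wild-type cells with IL-1β by 118 bp, 1 of 8 SIN3A peaks, against 12.4% of all. None of the 8 overlapped a PDX1 peak in wild-type control cells, where 6.81% of all did, in wild-type cells with IL-1β, where 6.16% did, or a p65 peak in wild-type control cells, where 1.63% did. The Cry2 site 9.01 kb after the start, seen only with Pdx1 siRNA, overlapped the PDX1 peak of wild-type cells with IL-1β by 120 bp and the p65 peak of those cells by 1 bp, and was the one site with all 3 proteins.

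**Figure D4:**
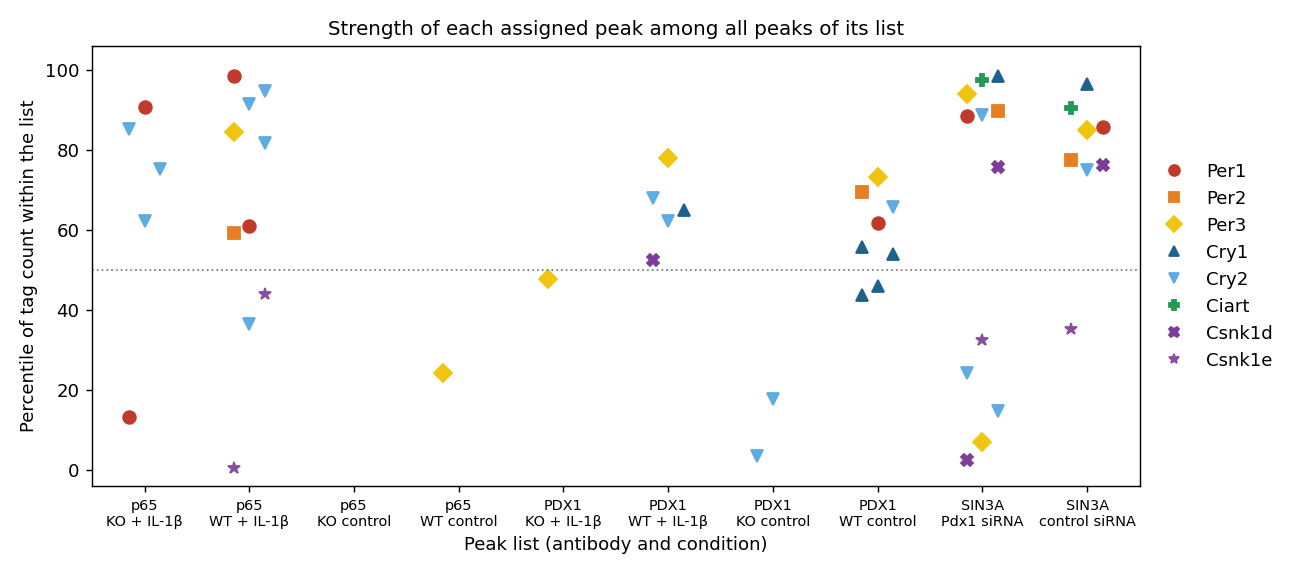
Percentile of each peak of the 8 genes among all peaks of its own list by tag count (vertical axis, 0 to 100), for the 10 lists along the horizontal axis; each marker is 1 peak, its shape and colour give the gene, and the dotted line is the median of a list. In the SIN3A lists the start peaks of Cry1 reach percentiles 98.6 with Pdx1 siRNA and 96.6 with control siRNA, and the upstream Per1 peak reaches 90.9 in knockout and 98.6 in wild-type cells in the p65 lists with IL-1β.

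Other genes of the pathway were read from 2 lists. Of 26 genes of PER and CRY turnover and complex partners, 13 had a p65 peak in knockout and 15 in wild-type cells with IL-1β, 0 in knockout control and 3 in wild-type control cells. In percent of the list these were 50, 57.7, 0 and 11.5, beside 33.0, 46.1, 0.676 and 9.01 of all coding genes. Their PDX1 counts were 4 in knockout and 12 in wild-type cells with IL-1β, and 4 in knockout and 16 in wild-type control cells. Those are 15.4% and 46.2% with IL-1β, beside 16.1% and 41.4% of all genes, and 15.4% and 61.5% in control cells, beside 16.5% and 42.0%. SIN3A was at 23 with Pdx1 siRNA (88.5%, beside 50.5% of all) and at 25 with control siRNA (96.2%, beside 48.1%). Of 15 clock activators and genes of the other loop, 10 had a p65 peak in knockout and 12 in wild-type cells with IL-1β, and 0 and 2 in the control cells. These were 66.7%, 80.0%, 0% and 13.3% of the list, beside 33.0%, 46.1%, 0.676% and 9.01% of all genes. PDX1 was at 4 and 11 of these with IL-1β and at 6 and 9 in control cells, again with knockout cells first, and SIN3A was at 12 with Pdx1 siRNA and 11 with control siRNA. The PDX1 shares were 26.7% and 73.3% with IL-1β, beside 16.1% and 41.4% of all genes, and 40% and 60% in control cells, beside 16.5% and 42.0%. The SIN3A shares were 80.0% with Pdx1 siRNA, beside 50.5%, and 73.3% with control siRNA, beside 48.1%.

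Genes whose 10 highest tag counts were most like those of a member were found by the Euclidean distance of log2(1 + tag count) over the lists, for the 3 members with a peak in at least 5 lists. For Per1 they were Jund (0.79) and Lin54 (0.87), for Per3 Nufip2 (1.50) and Mrtfa (1.88), and for Cry2 Nmd3 (0.76) and Slc12a2 (0.79), among 15913 genes with any peak. Per3 was the least closely matched of the 3.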

How the data were processed

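ChIP-seq of p65, PDX1 and SIN3A was analysed from 10 peak lists, 1 per group, that the authors deposited for 28 immunoprecipitated samples of 34 in the series; the other 6 are inputs. The submitters' processing notes name Bowtie2, HOMER and mm10, without versions. Per the file headers, each list was called with HOMER findPeaks in factor style against 1 input, with an FDR of 0.001, minimum folds of 4 over input (Poisson p 0.0001) and of 4 over the surrounding 10 kb, and fragments taken as 100 bp. Whether replicates were pooled is not stated there, and the labels do not say whether samples came from separate cultures. As signal, the authors' tag counts were used, which, per the file headers, are scaled to 10 M tags. The HOMER score used for ranks and the fold over input, a ratio of scaled tags, are the authors' own deposited values.

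Each peak went to the closest coding gene body (21887 in RefSeq GRCm38.p6) if within 50 kb, ties kept. Sharing means an overlap of at least 1 bp. Counting intervals are exact Poisson intervals at 95%, and those of ratios are derived from exact Clopper-Pearson intervals of the tags of both lists. Peaks of like tag count lie within 2.5 percentiles in the second list of a ratio, or in the first list of a sharing count. Setting tag counts of different lists side by side assumes that their scales match. Genes were named as members, as neighbours of their peaks, or as the 2 most alike genes. The members and lists were chosen with earlier results of these data known. On simulated peaks, the assignment of peaks inside gene bodies and the recovery of true overlaps were tested. False overlaps and the other steps were not. Python 3.11.15, numpy 2.4.6, pandas 2.3.3, scipy 1.17.1 and matplotlib 3.10.9 were used. Gene starts and strands came from the RefSeq promoter table. Peak sequences were not analysed here.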

Additional observations from a re-analysis of the deposited data

How the results depend on the processing

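Of 534 recomputed values, 454 stayed within 1.5 times of the reported one (for tag counts, within its counting interval) and 80 moved. Leaving out tied peaks could move none of its 55 values, because 0 peaks of these genes were tied. A count of 0 could not move under a stricter setting either, so the 454 include values that were bound to stay. With lists of equal length the higher wild-type PDX1 counts were lost, with 0 genes in wild-type and 1 in knockout cells. With at least 8-fold over input, wild-type p65 with IL-1β was at 3 genes and 5 peaks, and wild-type control PDX1 was at 2 genes and 4 peaks; wild-type control p65, knockout control PDX1, and PDX1 with IL-1β in wild-type cells had 0, as had every shared PDX1, p65 with PDX1 and SIN3A with p65 count that was above 0. Within 10 kb of a gene, PDX1 with IL-1β in wild-type cells was at 1 gene with 2 peaks, 1 of them shared with control; wild-type control p65 and knockout PDX1 with IL-1β had 0, and the highest p65 count at Csnk1e was 3.36. Within 100 kb, knockout PDX1 with IL-1β was at 2 genes with 2 peaks, and the highest PDX1 count at Cry1 was 24.6 with IL-1β and 17.9 in control cells. Counting genes of any biotype, or the nearest start, left 0 for wild-type control p65 and knockout PDX1 with IL-1β, and 2 genes and 3 peaks for PDX1 with IL-1β in wild-type cells; wild-type control PDX1 was at 3 genes by any biotype and at 2 genes and 5 peaks by start. By start, knockout control PDX1 had 1 peak, the highest p65 count at Cry2 was 15.7 in knockout and 44.6 in wild-type cells, and that at Csnk1e was 13.1. With lists of equal length, wild-type p65 with IL-1β at 3157 peaks was at 2 genes with 3 peaks; knockout p65 with IL-1β and wild-type control p65 at 173 peaks, and wild-type PDX1 at 8095 and 8339 peaks, had 0 (knockout PDX1 was at 1 gene in each list), and so had sharing between knockout and wild-type PDX1 and between p65 and PDX1 in wild-type control cells. With a reciprocal overlap of 50%, or centres within 100 bp, p65 and PDX1 shared 1 peak in wild-type cells with IL-1β. The 50% overlap left 0 for knockout control PDX1 in the wild-type list, and the 100 bp rule left 0 for p65 with PDX1 in wild-type control cells. Each of these settings changes which peaks or genes are counted, and no other cause was tested. The SIN3A gene counts did not move by over 1.5 times under any setting run. In both lists they were 7 with genes of any biotype, without Ciart, and 6 by nearest start, without Per2 and Csnk1d. No start was matched for Per2 and Csnk1d, so by nearest start neither could be counted for any of the 3 proteins.

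No paired analysis was possible because the lists hold no value per replicate, and leaving out replicates was not run for the same reason. The lowest tag count of a listed peak ran from 2.49 to 5.33 per 10 M across the lists, and weaker occupancy was not detectable. The lists with the lowest and highest of these floors had 60.2 and 61.9 M tags, and their peak windows were 207 and 479 bp. The SIN3A list with control siRNA, with 31.0 M tags and windows of 225 bp, had a floor of 4.51. Depth and window both differed between lists, and the part of each in these floors was not tested.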
